A study of Drosophila melanogaster with 16 samples.

Results

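Drosophila melanogaster embryos that carry human Otx2 under a heat shock promoter (hsp-Otx2, 4 arrays) were compared with heat-shocked Oregon-R wild-type embryos (3 arrays), 7 of the 16 expression arrays of the series, chosen by their titles. Every difference was then checked against untreated Oregon-R embryos (5 arrays), and embryos of the hsp-otd line (4 arrays), which carry the fly gene in place of the human one, were used where the 2 transgenic lines were set against each other. The hsp-Otx2, hsp-otd and heat-shocked wild-type embryos were collected over 12 h, aged for 4 h, held at 37 °C for 25 min and left to recover at 25 °C for 25 min, and all embryos were at stages 10 to 17. For the untreated embryos the labels name no collection time, ageing or heat pulse. No hsp-Otx2 embryos without a heat pulse and no matched line without the transgene are among the samples, so the Otx2 protein, the insertion and the genetic background of the line cannot be told apart. The labels do not say whether arrays of a group came from separate collections, so the p-values measure the spread between arrays, which may be technical.

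Otx2 is a homeodomain transcription factor that vertebrates need to form the forebrain and midbrain. Its Drosophila relative is orthodenticle (symbol oc), which acts in the head segments, the anterior brain and the ventral midline. A heat shock promoter switches a transgene on in nearly all cells at once, so such embryos hold the factor also in tissues that normally lack it. These RNAs came from whole embryos, in which fewer cells of a type and less RNA per cell cannot be told apart. No probe set name contains OTX (0 found), so the human transcript itself was not measured here.

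The values are fluorescence intensities, 1 per probe set (a group of probes for 1 transcript) and array, brought to a common distribution by quantile normalization. Values under 20, which include all negative ones, were raised to 20, called the floor below. Mean deposited intensity lay between 609.3 and 1016 in the hsp-Otx2 arrays and between 460.2 and 650.2 in heat-shocked wild type. The hsp-Otx2 arrays correlated with each other at 0.930 to 0.950 over tested probe sets (log2 values), the heat-shocked wild-type arrays at 0.875 to 0.904, and arrays of one group with those of the other at 0.776 to 0.856. Replicate 3 of heat-shocked wild type had the lowest mean of all arrays, and counts without it are given with the main result. Among the untreated arrays, correlations ran from 0.881 to 0.947. Untreated arrays 1 to 3 had mean deposited intensities of 598.7 to 662.2, and arrays 4 and 5 had 950.6 and 999.1. Markers of somatic muscle were bright in all groups, while of 3 neuronal markers brp lay at the floor in all heat-shocked wild-type arrays and the neuronal sum was at most 2014 in any array.

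Transcripts that differed between hsp-Otx2 and heat-shocked wild type were widespread. Of 12301 probe sets tested, 4577 (37.2%) passed a limma test at a Benjamini-Hochberg adjusted p below 0.05. Of these, 2154 (17.5%) were higher and 2423 (19.7%) were lower in hsp-Otx2, and 1461 and 1040 of them differed by at least 2-fold. With the arrays scaled to a common median instead, 58.1% of the calls were higher, against 47.1% here, so the balance of higher and lower calls depends on the scaling. The median log2 difference of all probe sets moved with the scaling too, from -0.13 after quantile normalization to -0.03 after median scaling and 0.29 without normalization. Without replicate 3 of heat-shocked wild type 3895 probe sets passed.

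The check against untreated wild type kept 1495 of the 2154 higher probe sets (69.4%) and 1447 of the 2423 lower ones (59.7%) in the same direction, 2942 in all (23.9% of those tested). Another 557 higher and 907 lower probe sets did not pass against untreated wild type, and 102 and 69 passed in the opposite direction. Both comparisons share the hsp-Otx2 arrays, so agreement between them is not independent evidence. By itself hsp-Otx2 over untreated wild type gave 4917 calls (40%), and heat-shocked over untreated wild type 2770 (22.5%).

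**Figure D1:**
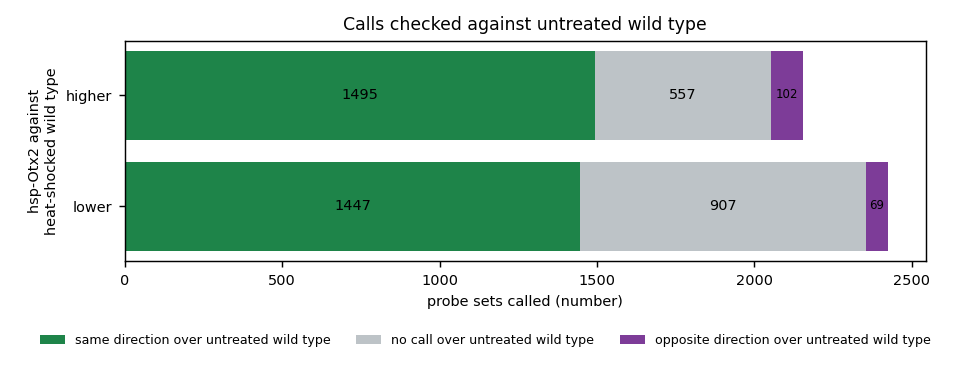
Bars show the number of probe sets called higher or lower in hsp-Otx2 than in heat-shocked wild type, split by their call against untreated wild type. Most calls kept their direction (1495 higher, 1447 lower), and 102 and 69 were called the opposite way.

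The heat pulse itself was seen alike in both heat-shocked groups. All 13 tested genes of the heat-inducible heat shock list were higher in hsp-Otx2 than in untreated wild type, by a log2 difference of 0.80 to 9.79, and all 13 were higher in heat-shocked wild type, by 0.90 to 9.71. Both upper ends are lower bounds, since Hsp68 was at the floor in all untreated arrays. Against heat-shocked wild type, 1 of the 13 was higher and 1 was lower in hsp-Otx2, with a list median log2 difference of -0.10. The lower one was stv (starvin), a BAG-domain partner of Hsp70, which read 3367, 2537, 3379 and 3280 in hsp-Otx2 and 6144, 5838 and 5323 in heat-shocked wild type. After quantile normalization the groups did not overlap, and stv was lower by a log2 difference of -0.88 (SE 0.15, limma adjusted p = 0.000181). Without normalization it did not pass (-0.31, limma adjusted p = 0.511), and neither did the other probe set of stv (-0.16, limma adjusted p = 0.835). The higher one, the small heat shock protein gene Hsp67Bc, differed by 0.29 (SE 0.09, limma adjusted p = 0.0146). Median scaling ended that call (0.12, limma adjusted p = 0.501), as did leaving out heat-shocked wild-type replicate 2 (0.25, limma adjusted p = 0.0651).

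The resident fly relative oc was low in both groups. It read 127.3, 105.1, 120.8 and 96.6 in hsp-Otx2. In heat-shocked wild type it read 234.9 and 76.7 in replicates 1 and 3 and lay below the floor in replicate 2. The groups overlap, and the log2 difference of 0.65 (SE 0.54) did not pass (limma adjusted p = 0.373). Leaving out replicate 2 turned it to -0.27 (limma adjusted p = 0.617), and leaving out replicate 1 made it 1.52 (limma adjusted p = 0.0102). Against untreated wild type, where 1 of 5 arrays was above the floor, oc was higher by 2.47 (limma adjusted p = 0.000466).

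The 10 genes that rose most, each of them over untreated wild type as well, included genes of a kinase, a trafficking factor, a transcription factor and gut enzymes. The transcript of lic (licorne), a MAP kinase kinase that activates p38, read 1569, 1366, 1451 and 1449 in hsp-Otx2 and lay at the floor in all 3 heat-shocked wild-type arrays. It was therefore at least 72.9-fold higher (fitted log2 difference 6.19, SE 0.49, limma adjusted p = 7.96e-08), and 1 of 5 untreated arrays was above the floor. The transcript of muskelin, whose mammalian protein belongs to a ubiquitin ligase complex, read 1792, 1364, 1702 and 1624 in hsp-Otx2. The highest of the 8 wild-type arrays read 33.1 for it, and the log2 difference was 6.09 (SE 0.51, limma adjusted p = 1.34e-07). The transcript of flfl (falafel), a regulatory subunit of protein phosphatase 4, read 1317, 1123, 1427 and 1558 and lay at the floor in all 8 wild-type arrays, at least 67.3-fold lower. All 3 genes were clearly separated from both wild types, and all 3 were also higher than in hsp-otd, by 3.85, 4.93 and 2.46 (largest limma adjusted p = 1.02e-05).

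The maternal thioredoxin gene dhd (deadhead), known for its role at fertilization, read 1288, 1316, 1286 and 1223 in hsp-Otx2. It was at the floor in all heat-shocked wild-type arrays, at least 63.9-fold lower, while 4 of 5 untreated arrays were above the floor with a highest value of 161.4. Vps26, a subunit of the retromer that recycles membrane proteins, read 810.6, 1037, 764.6 and 1004 and was at the floor in all 8 wild-type arrays, at least 44.8-fold lower. The transcript of mol (moladietz), a factor that helps Duox mature, read 1013, 949.5, 907.2 and 920.9, and no other array of the series exceeded 46.6. The second probe set of mol was higher too, by 2.51 (limma adjusted p = 1.28e-07). Trf2, which encodes a TBP-related factor that starts transcription at promoters without a TATA box, had a geometric mean of 751.1 against the floor in all heat-shocked wild-type arrays, at least 37.6-fold higher, and its second probe set gave a log2 difference of 4.67 (limma adjusted p = 0.000118).

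The other 3 of these 10 genes bear names of digestive enzymes. Jon25Bi, a Jonah serine protease, was matched here only through the older name Ser4 of its probe set, so its identity is uncertain. That probe set read 1427, 1056, 1084 and 825.2 and was at the floor in all 8 wild-type arrays, at least 53.9-fold lower. Jon99Fi, another Jonah protease, read 3844, 3291, 3371 and 4627 in hsp-Otx2, but 1 heat-shocked wild-type array read 1525 and the other 2 were at the floor. Its log2 difference was 5.47 (SE 1.08, limma adjusted p = 0.000834) and became 7.58 without replicate 1, 4.44 without replicate 2 and 4.45 without replicate 3 of heat-shocked wild type. The maltase gene Mal-A4 read 786.3, 1649, 789.6 and 849.7 and was at the floor in all heat-shocked wild-type arrays, at least 48.3-fold lower. In untreated wild type it lay between 44.7 and 197.6, so its log2 difference there was 3.08 (limma adjusted p = 1.6e-05).

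**Figure D2:**
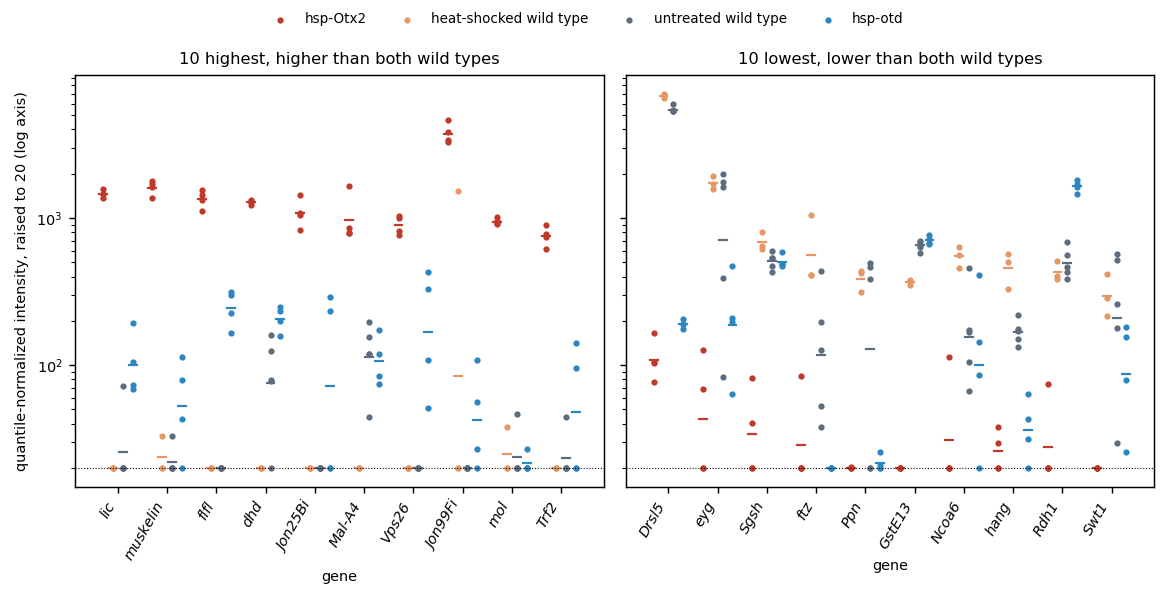
Each point is the normalized intensity of 1 array (log axis, values under 20 raised to 20, dotted line) and each bar the geometric mean of a group, for the 10 genes that rose most (left) and the 10 that fell most (right) over both wild types. The hsp-Otx2 points lie above all other points for every gene on the left, and on the right Drsl5 lies near 6795 and 5466 in the wild types and near 108.3 in hsp-Otx2.

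Among the 10 lowest, Drsl5, which encodes a drosomycin-like antifungal peptide, stood out by its brightness. It read 6519, 6906 and 6967 in heat-shocked wild type and 5301 to 5925 in untreated wild type, against 76.8, 165.5, 102.9 and 105.3 in hsp-Otx2. The log2 difference from heat-shocked wild type was -5.97 (SE 0.17, limma adjusted p = 9.37e-13). The hsp-otd arrays were low as well, at 176.8 to 205.2, so both transgenic lines stood apart from Oregon-R, and hsp-Otx2 was lower than hsp-otd by -0.82 (limma adjusted p = 0.000826). GstE13, a glutathione transferase gene, showed another pattern. It was at the floor in all 4 hsp-Otx2 arrays and read 352.8, 378.4 and 369.3 in heat-shocked wild type, at least 18.3-fold higher there. In untreated wild type and hsp-otd it was at 652.2 and 707.2 in geometric mean.

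Sgsh, the gene of a lysosomal sulfamidase, read 615.9, 803.2 and 641.2 in heat-shocked wild type, while 2 hsp-Otx2 arrays were at the floor and the others read 81.3 and 40.3. Its log2 difference was -4.33 (SE 0.37, limma adjusted p = 2.1e-07), and it was lower than in hsp-otd by -3.90. Rdh1, related to retinol dehydrogenases, read 507.3, 401.8 and 386.6 in heat-shocked wild type and 1465 to 1801 in hsp-otd, and 1 hsp-Otx2 array, at 74.6, was above the floor. The log2 differences were -3.95 from heat-shocked wild type and -5.89 from hsp-otd (largest limma adjusted p = 6.11e-07). Swt1 was at the floor in all hsp-Otx2 arrays and at 294.2 in geometric mean in heat-shocked wild type, at least 14.7-fold higher there.

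Several of the lowest genes varied among untreated arrays. The Pax-family gene eyg (eyegone) read 1939, 1694 and 1578 in heat-shocked wild type and 127.3 and 68.5 in 2 hsp-Otx2 arrays, with the other 2 at the floor (log2 difference -5.32, SE 0.97, limma adjusted p = 0.000425). Untreated arrays 1 to 3 read 1993, 1767 and 1616 and arrays 4 and 5 read 389.9 and 83.2, so eyg overlapped with untreated wild type. The pair-rule gene ftz read 407.9, 408.2 and 1051 in heat-shocked wild type and was above the floor in 1 hsp-Otx2 array, at 84.9 (-4.28, SE 0.74, limma adjusted p = 0.000272). It too overlapped with untreated wild type, at 38.0 to 436.6, and lay at the floor in all hsp-otd arrays. The extracellular matrix gene Ppn (papilin) differed by -4.26 on the probe set named here and by -0.28 on its other probe set, which was brighter and did not pass (limma adjusted p = 0.186). On the probe set named here untreated arrays 1 to 3 read 494.1, 385.7 and 466.2. Untreated arrays 4 and 5 were at the floor, as low as hsp-Otx2, and the hsp-otd arrays were at or near it. The probe sets of hang (hangover), which encodes a zinc finger protein, even ran in opposite directions, at -4.14 and 1.36 (limma adjusted p = 2.04e-06 and 7e-08). Ncoa6, the gene of a nuclear receptor coactivator, gave -4.15 (limma adjusted p = 0.00143), or -4.76 without hsp-Otx2 replicate 4.

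Some probe sets separated hsp-Otx2 from all 12 other arrays by the floor itself. For 21 probe sets of 19 named genes, all 4 hsp-Otx2 arrays were above the floor and all 12 others at it. These were singled out after their values were seen, and they reached the 3 arrays needed for testing only through hsp-Otx2. The brightest was crm (cramped), which encodes a chromatin protein of the Polycomb group, at 517.2 in geometric mean and at least 25.9-fold above the floor. S2P, the protease that frees the lipid regulator SREBP from its membrane, followed at 384.3 and at least 19.2-fold, and mus304, a DNA damage checkpoint gene, stood at 297.9 and at least 14.9-fold. The set also held Trf, another TBP-related factor, the mitotic inhibitor kinase gene Wee1, and the maternal genes exu, cup and osk described below. The reverse pattern, at the floor in all hsp-Otx2 arrays and above it in all 12 others, was seen for 7 probe sets of 6 named genes. Among them were GstE13, Ssrp, which encodes a subunit of the FACT chromatin factor, and Cdk8, the kinase of the Mediator complex. Cdk8 was dim, at 62.4 in geometric mean in heat-shocked wild type, at least 3.12-fold above hsp-Otx2 (limma adjusted p = 0.0175). It no longer passed without heat-shocked wild-type replicate 1 or 3 (limma adjusted p = 0.0755 and 0.081), and its fitted log2 difference moved from -1.64 to -2.45 without replicate 2.

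10 more genes are named because they passed over heat-shocked wild type but did not pass in the same direction over untreated wild type, 5 higher and 5 lower. The cuticle gene Ccp84Ac read 858, 647, 708.7 and 757.3 in hsp-Otx2 and was at the floor in all 3 heat-shocked wild-type arrays, at least 36.9-fold lower. Untreated embryos read 1416 to 2429, above hsp-Otx2, for a log2 difference of -1.53 in hsp-Otx2 (limma adjusted p = 1.37e-06). Muc91C, a mucin-like gene, was at least 33.3-fold over heat-shocked wild type and lower than in untreated wild type too, at 667 against 2660 in geometric mean. The condensin subunit gene SMC2 was at 1065 against 47.7 in heat-shocked wild type (4.48, SE 0.68, limma adjusted p = 7.53e-05), with 1 array of 3 above the floor, and moved to 5.76 without that array (replicate 1), 3.87 without replicate 2 and 3.88 without replicate 3. Girdin, which encodes an actin-binding protein, gave 4.46, or 5.19 without replicate 1, and wcy gave 4.91. None of SMC2, Girdin and wcy passed against untreated wild type (limma adjusted p = 0.106, 0.0548 and 0.0527).

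The 5 lower ones read above 215 in all heat-shocked wild-type arrays and were at or near the floor in some untreated ones. The fibroblast growth factor gene ths (thisbe) read 286.5, 445.6 and 680.4 in heat-shocked wild type, and in hsp-Otx2 it read 105.1 and 40.3 in 2 arrays and was below the floor in the other 2 (-3.62, SE 0.85, limma adjusted p = 0.00302). The odorant-binding protein gene Obp56e gave -3.97, the dynein light chain gene robl62A -3.56, the leucine-rich repeat gene Lrr47 -3.98 (with 2 hsp-otd arrays at 458.9 and 382.3) and the transmembrane protease gene Np (notopleural) -3.86. Adjusted p values in limma against untreated wild type ran from 0.0607 for robl62A to 0.59 for Np. The other probe set of Np, brighter, did not pass against heat-shocked wild type (-0.64, limma adjusted p = 0.101) and was higher than in untreated wild type (0.73, limma adjusted p = 0.0327).

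Gene lists were read against all genes with a tested probe set, of which 18.1% were higher and 19.9% lower in hsp-Otx2 than in heat-shocked wild type (10075 genes, median log2 difference -0.12). Without normalization no list had more than 4 lower members, and the lower counts given below are those after quantile normalization. Of the head and brain patterning list, 0 of 29 tested genes were higher and 11 were lower (median -0.64), and 7 of the 11 were also lower than in untreated wild type. The lower count was 7 after median scaling, 0 without normalization and 6 without replicate 3 of heat-shocked wild type. The forkhead gene slp1 (sloppy paired 1) read 215.2, 373.9, 363.9 and 310.9 in hsp-Otx2 and 488.9, 654.2 and 871.1 in heat-shocked wild type. After quantile normalization the groups did not overlap, at a log2 difference of -1.08 (SE 0.21, limma adjusted p = 0.000826). Without normalization they overlapped and slp1 did not pass (-0.58, limma adjusted p = 0.333). Its neighbour slp2 gave -0.71, the head gap gene btd (buttonhead) -0.96 and the retinal homeobox gene Rx -2.17 (largest limma adjusted p = 0.01). The Rx probe set was near the floor, at 21.3 in hsp-Otx2 and 96.1 in heat-shocked wild type. The head gap gene ems (empty spiracles), named after its values were seen, was at 209.8 in heat-shocked wild type and 105.1 in hsp-Otx2 in geometric mean (limma adjusted p = 0.0411). It did not pass when any of the 3 heat-shocked wild-type arrays was left out (limma adjusted p = 0.115, 0.0662 and 0.0677), nor without hsp-Otx2 replicate 1 or 4 (0.0971 and 0.104).

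Hox genes set positions along the body axis. Of the 10 tested genes of the Hox list, 5 were lower and 0 higher (median -0.70), and 1 of the 5 passed against untreated wild type too. Abd-B, which specifies the posterior abdomen, read 173.3, 176.7, 158.8 and 204.8 in hsp-Otx2 and 440.6, 443.9 and 610 in heat-shocked wild type (-1.47, SE 0.30, limma adjusted p = 0.000945). Its level in hsp-Otx2 overlapped with untreated wild type on this probe set. The other probe set of Abd-B gave -1.80 and was lower than in untreated wild type as well (-1.37, limma adjusted p = 0.00786). The proboscis gene pb (proboscipedia) was lower by -2.10 and passed also against untreated wild type (-1.38, limma adjusted p = 0.0365). The cofactor hth (homothorax), which brings Exd into the nucleus, was lower by -0.69 but higher than in untreated wild type by 1.73 (limma adjusted p = 1.24e-07). Dfd (Deformed), a head Hox gene, gave -0.96, but without heat-shocked wild-type replicate 3 it no longer passed (-0.66, limma adjusted p = 0.103).

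Of the segment polarity, Hedgehog and Wnt list, 5 of 23 tested genes were higher and 7 lower (median -0.20), and the lower count was 4 without replicate 1 of heat-shocked wild type. The Wnt receptor gene fz (frizzled) read 3342, 3336, 3306 and 3253 in hsp-Otx2 and 1886, 1903 and 2200 in heat-shocked wild type (0.73, SE 0.10, limma adjusted p = 2.75e-05). The kinase gene fu (fused), of the Hedgehog pathway, was higher by 3.31 (SE 0.63, limma adjusted p = 0.000655) and became 4.14 without replicate 2 and 2.35 without replicate 3 of heat-shocked wild type. The ligand gene Wnt4 was lower by -0.77, against heat-shocked wild type alone.

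EGF receptor signalling uses ligands that rhomboid proteases release, and it patterns the ventral midline and the nerve cord. Of 16 tested genes of this list, 9 were lower and 0 higher (median -0.50), 8 of them also lower than in untreated wild type. After median scaling 7 were lower and without normalization 0. The protease gene rho (rhomboid) read 1150, 1282, 1307 and 1213 in hsp-Otx2 and 2084, 2266 and 2132 in heat-shocked wild type (-0.80, SE 0.09, limma adjusted p = 3.18e-06). The receptor gene Egfr read 834.1, 1009, 940 and 926 against 1765, 1723 and 2712 (-1.13, SE 0.17, limma adjusted p = 7.34e-05). The ETS factor gene pnt (pointed), through which the pathway acts on its targets, gave -1.03, and the adhesion gene Nrt (neurotactin) -0.46. For rho, Egfr and pnt no hsp-Otx2 array reached the lowest heat-shocked wild-type array. The midline regulator sim (single-minded), named after its values were seen, was at 301.2 in heat-shocked wild type and 126.2 in hsp-Otx2 in geometric mean (-1.25, limma adjusted p = 0.0375). It no longer passed when heat-shocked wild-type replicate 1 or 2 or hsp-Otx2 replicate 2 or 3 was left out (limma adjusted p = 0.0906, 0.13, 0.0839 and 0.0926). Nrt did not pass after median scaling (-0.21, limma adjusted p = 0.155), and its sign turned to 0.18 without normalization (limma adjusted p = 0.771).

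The Notch list held the highest share of lower genes of all lists, 13 of 21 tested, with 1 higher (median -0.91). All 13 were also lower than in untreated wild type, and the count stayed at 12 or 13 when any array of the compared groups was left out. Notch is a receptor whose activation switches on the Enhancer of split genes, repressors that keep cells from becoming neurons, while the Bearded genes dampen the signal. Of 13 tested genes of these 2 complexes 11 were lower and 0 higher than in heat-shocked wild type (median -0.99), and all 13 were lower than in untreated wild type and than in hsp-otd. Of the other 8 members, 2 were lower and 1 higher. These subgroups were split off after the values were seen.

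E(spl)m4-BFM, a Bearded family gene, read 339.6, 242.7, 307.4 and 364.9 in hsp-Otx2, 1016, 1210 and 1434 in heat-shocked wild type and 3009 to 3594 in untreated wild type. It was lower by -1.96 than in heat-shocked wild type (SE 0.13, limma adjusted p = 1.28e-08) and by -3.40 than in untreated. The repressor gene E(spl)m7-HLH read 584.9, 880.4, 674.9 and 612.7 against 2135, 2417 and 2632 (-1.81, SE 0.12, limma adjusted p = 1.5e-08). Brd (Bearded) itself read 498.4, 553.2, 436.7 and 510 against 1379, 1220 and 1502 (-1.45, SE 0.10, limma adjusted p = 1.07e-08), and E(spl)mbeta-HLH gave -0.91, which did not pass without normalization (-0.30, limma adjusted p = 0.546). For these 4 genes the groups did not overlap after quantile normalization, and heat-shocked wild type lay between hsp-Otx2 and untreated wild type. In hsp-otd the same 4 genes were at 2263 to 3122, above heat-shocked wild type, and hsp-Otx2 was lower than hsp-otd by -1.06 to -2.89 (largest limma adjusted p = 3.91e-09). The receptor gene N gave -0.17 and did not pass. Su(H), which encodes the DNA-binding partner of activated Notch, was the higher one, at 674 against 72.5 in geometric mean (3.22, SE 0.76, limma adjusted p = 0.00326). Its heat-shocked wild-type log2 values spread widely, at 6.20, the floor and 8.02, and the difference became 2.29 without replicate 2 and 4.16 without replicate 3 of that group. N and Su(H) are named after their values were seen.

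**Figure D3:**
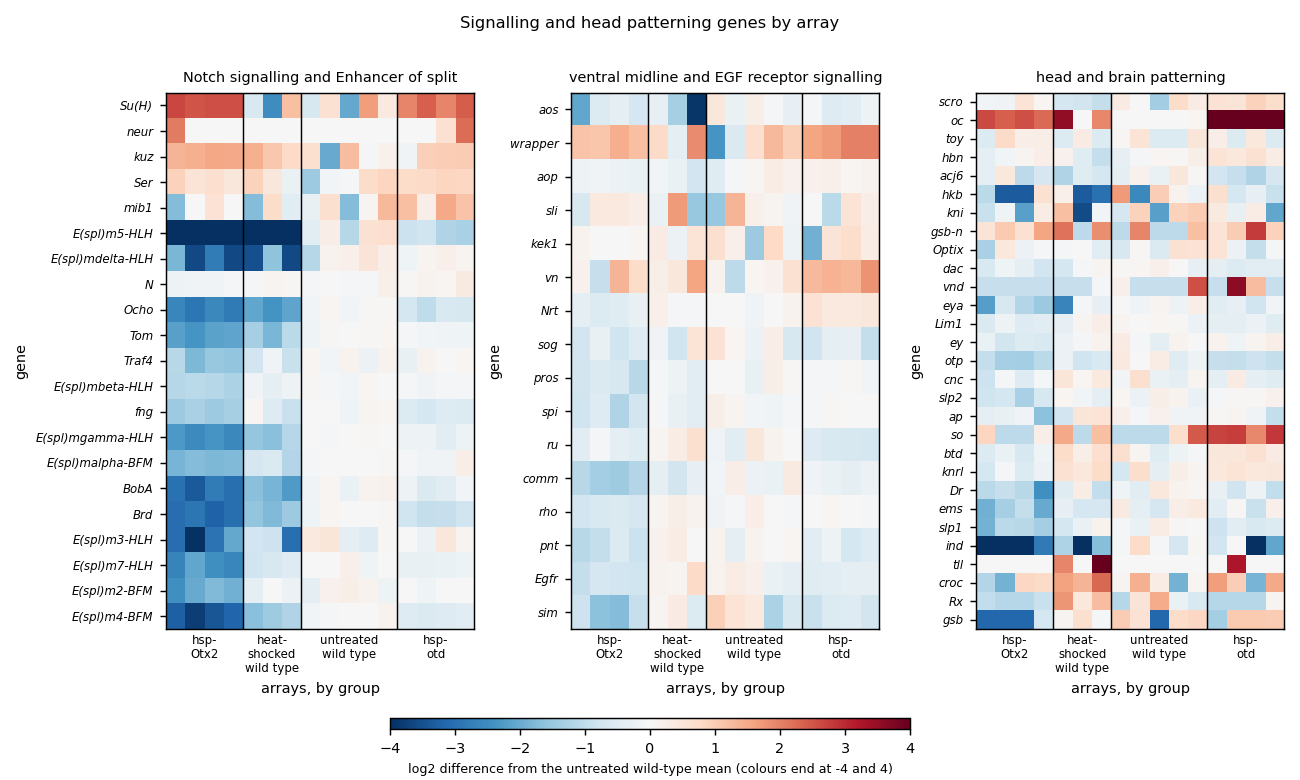
Each row is a gene and each column an array, coloured by the log2 difference from the untreated wild-type mean, with genes ordered by the difference between hsp-Otx2 and heat-shocked wild type. Most Enhancer of split and Bearded rows are darkest blue in the 4 hsp-Otx2 columns and paler in heat-shocked wild type, while in hsp-otd they are paler still or near white.

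Genes of neural fate were lower more often than higher. Of the proneural and neuroblast list 9 of 26 tested genes were lower and 1 higher (median -0.55), and 6 of the 9 passed also against untreated wild type. Without replicate 1 of heat-shocked wild type 5 were lower. The gap and neuroblast gene hb (hunchback) was the higher one (0.87, SE 0.15, limma adjusted p = 0.000291), with 658.2, 810.9, 718 and 849.7 against 448.1, 420.2 and 372.9, and it did not pass against untreated wild type. The POU factor gene nub (nubbin) gave -1.08, the epithelial factor gene grh (grainy head) -2.20 and SoxN -0.67, none of which passed against untreated wild type on these probe sets. SoxN did not pass after median scaling (-0.45, limma adjusted p = 0.0736), and the other 2 probe sets of nub did not pass over heat-shocked wild type (limma adjusted p = 0.153 and 0.885). Of the glia list 5 of 15 were lower and 1 higher (median -0.49). Among these the glutamine synthetase gene Gs2 read 792.6, 612.7, 684.1 and 820.2 in hsp-Otx2 and 1523, 1281 and 1246 in heat-shocked wild type (-0.90, SE 0.12, limma adjusted p = 2.07e-05). Markers of glia summed to 620 to 836.8 in hsp-Otx2 and to 842.5 to 1205 in heat-shocked wild type, and those of neurons to 614.8 to 936.2 and 503.2 to 1251. Their part in these results was not tested.

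Of the cell adhesion and axon guidance list 12 of 32 tested genes were lower and 5 higher (median -0.28). The lower count was 6 after median scaling, and without normalization it was 0 with 4 higher. Fas2 (fasciclin 2), a neural cell adhesion molecule, read 1107, 1109, 1187 and 1143 in hsp-Otx2, 2331, 2392 and 2717 in heat-shocked wild type and 1911 to 2061 in untreated wild type. Its spread within groups was small after quantile normalization. It was lower by -1.12 than in heat-shocked wild type (SE 0.07, limma adjusted p = 5.06e-09) and by -0.99 than in hsp-otd. Without normalization the groups overlapped and Fas2 did not pass over heat-shocked wild type (-0.47, limma adjusted p = 0.292). The receptor gene drl (derailed) was lower by -0.96 and the receptor phosphatase gene Ptp69D higher by 1.39. Ephrin, a membrane-bound guidance ligand, read 617.5, 470.6, 580.2 and 608.4 against 169.9, 138.8 and 115.5 (2.02, SE 0.29, limma adjusted p = 4.67e-05), and its other probe set gave 1.96. Of the photoreceptor and phototransduction list 7 of 24 were lower and 0 higher (median -0.61). These genes were dim in hsp-Otx2: inaC was at the floor in all 4 arrays, at least 5.81-fold lower than in heat-shocked wild type, and inaD lay at 129.5 to 215.8. Without replicate 3 of heat-shocked wild type the calls of the phosphatase gene rdgC (-0.85, limma adjusted p = 0.0654) and of the opsin gene Rh6 (-2.19, limma adjusted p = 0.0596) were lost.

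Septate junctions seal epithelia. Of their list 10 of 25 tested genes were lower and 3 higher (median -0.33), with 4 lower and 4 higher after median scaling and 0 lower and 4 higher without normalization. Within one family of small membrane-anchored proteins, bou (boudin) was lower by -0.73 and crok (crooked) higher by 1.34 (largest limma adjusted p = 3.67e-06). For crok the hsp-Otx2 arrays read 1679, 1686, 1632 and 1478 and the heat-shocked wild-type arrays 645.7, 648.9 and 619.7, with no overlap. The haemocyte and basement membrane list had 9 lower and 1 higher of 18 (median -0.30), and 6 lower and 5 higher after median scaling. The higher count was 3 without replicate 1 of heat-shocked wild type. Ndg (nidogen), a basement membrane glycoprotein, read 608.4, 468.7, 872 and 909.4 against 5088, 4873 and 5852 (-2.93, SE 0.18, limma adjusted p = 4.14e-09) and was lower also than in untreated wild type and hsp-otd (-3.17 and -2.46). The crystal cell enzyme gene PPO2 gave -1.19. Of 5 haemocyte markers, which overlap with this list, 1 (Pxn) was lower and 0 higher, and Hml was at the floor in all wild-type arrays. They summed to 18060 to 18610 in hsp-Otx2 and to 16330 to 16950 in heat-shocked wild type, and their part in these results was not tested.

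The germ line and maternal list moved the other way, with 9 of 20 tested genes higher and 2 lower (median 0.85), and all 9 were also higher than in untreated wild type. These genes encode proteins and RNAs that the mother loads into the egg. The transcript of exu (exuperantia), which localizes RNAs in the oocyte, read 286.9, 192.9, 251.6 and 250.8 in hsp-Otx2 and was at the floor in all 12 other arrays, at least 12.2-fold lower. The translational repressor gene cup read 277.4, 129.2, 216.9 and 233.1 and the posterior determinant gene osk (oskar) 146.1, 122.7, 119.8 and 135.4, both at the floor in all others, at least 10.3-fold and 6.53-fold lower. The other probe sets of exu and osk, also at the floor in all wild-type arrays, were higher too (limma adjusted p = 5.42e-06 and 1.26e-06). All these probe sets of exu, cup and osk reached the 3 arrays needed for testing only through hsp-Otx2. Their calls are therefore not independent support, and exu, cup and osk are counted among the 9 higher genes. The piRNA factor gene aub (aubergine), by contrast, was expressed in every group and higher by 1.22 (SE 0.16, limma adjusted p = 1.99e-05). The probe set matched by name to the anterior determinant bcd was bright in hsp-Otx2 and heat-shocked wild type, at 5435 and 5528 in geometric mean. It did not pass (-0.03, SE 0.24, limma adjusted p = 0.955), and whether it measures bcd was not tested. Summed germ line markers (vas, pgc and osk) ran from 778.5 to 834 in hsp-Otx2, 293.1 to 390.3 in heat-shocked wild type and 631.9 to 766 in hsp-otd. Their part in the other results was not tested.

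Genes of early zygotic segmentation were lower more often than higher. Of the blastoderm list 8 of 21 tested genes were lower and 2 higher (median -0.46), against 1 lower and 2 higher without normalization. The pair-rule gene eve (even skipped) read 1058, 1127, 879.5 and 1109 against 1945, 2130 and 2574 (-1.08, SE 0.14, limma adjusted p = 1.47e-05), and odd (odd skipped) gave -0.91. The cellularization gene slam was higher, at 2285, 2361, 2038 and 2200 against 274.4, 869.2 and 859.6 (1.91, SE 0.30, limma adjusted p = 0.000116). Summed early blastoderm markers were 1732 to 1882 in hsp-Otx2 and 3033 to 4303 in heat-shocked wild type.

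Digestive enzyme genes were more often higher than lower in hsp-Otx2. Of 40 tested genes of the midgut list, 18 were higher and 1 lower (median 0.70), 15 of the 18 also over untreated wild type. Of the 15 Jonah proteases 8 were higher and 0 lower, and of 7 lysozymes 5 and 0. Of 8 trypsins 2 were higher and 0 lower, where 18.1% of all genes were higher. Of 4 maltases 1 was higher and 0 lower, and their median log2 difference was -1, against 0.64 to 0.77 for the other groups. These groups were formed after the values were seen, with the uncertain Jon25Bi counted among the Jonah proteases. The trypsin gene alphaTry read 4551, 4789, 4298 and 4756 in hsp-Otx2, 1357, 1473 and 1220 in heat-shocked wild type, 635.2 to 1055 in untreated wild type and 1163 to 1329 in hsp-otd. It was higher by 1.77 than in heat-shocked wild type (SE 0.14, limma adjusted p = 5.4e-08), with no overlap between hsp-Otx2 and any other array. Its paralog gammaTry read 4162, 4190, 4155 and 3648 against 923.2, 1058 and 984.1 (2.03, SE 0.16, limma adjusted p = 8.94e-08). Near-identical trypsin and Jonah copies may share probes, so their members are not independent. The lysosomal mannosidase gene LManII was higher by 1.21 but lower than in hsp-otd by -0.59. Summed midgut markers, led by Jon99Ciii, ran from 8820 to 9123 in hsp-Otx2, 969.9 to 1990 in heat-shocked wild type, 80 to 261.7 in untreated wild type and 626.1 to 763 in hsp-otd. The homeotic midgut marker lab was at the floor in all hsp-Otx2 and all wild-type arrays. The part of these markers in the result was not tested.

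Of the cell cycle and DNA replication list 18 of 41 tested genes were higher and 8 lower (median 0.60), 14 and 8 of them also over untreated wild type. The balance was not kept against the other groups. Over untreated wild type 15 of the 41 were higher and 18 lower (median -0.21), and over hsp-otd 14 and 19 (median -0.37). Heat-shocked wild type itself had 2 higher and 15 lower than untreated wild type. The genes higher than in heat-shocked wild type included genes of mitosis. CycB (Cyclin B), the regulator of entry into mitosis, read 13880, 14220, 18880 and 15330 in hsp-Otx2 and 2768, 3265 and 3720 in heat-shocked wild type (2.26, SE 0.14, limma adjusted p = 4.32e-09). The mitotic kinase gene polo read 4898, 4608, 4689 and 4927 against 421.7, 733.6 and 918 (2.86, SE 0.20, limma adjusted p = 2.33e-08). The cytokinesis gene tum (tumbleweed) gave 2.42 and the replication helicase gene Mcm7 1.39. For CycB, polo, tum and Mcm7 every hsp-Otx2 array was above every other array of the series. Genes of replication were among the lower ones: dpa, which encodes Mcm4, was at 385.7 in heat-shocked wild type and near the floor in hsp-Otx2 (-3.79, limma adjusted p = 6.62e-06), and Orc2 was at 149.9 and 22.7 in geometric mean. The Cdk inhibitor gene dap (dacapo) was lower by -1.28, at 2394 against 986.2. These 3 were named after their values were seen.

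**Figure D4:**
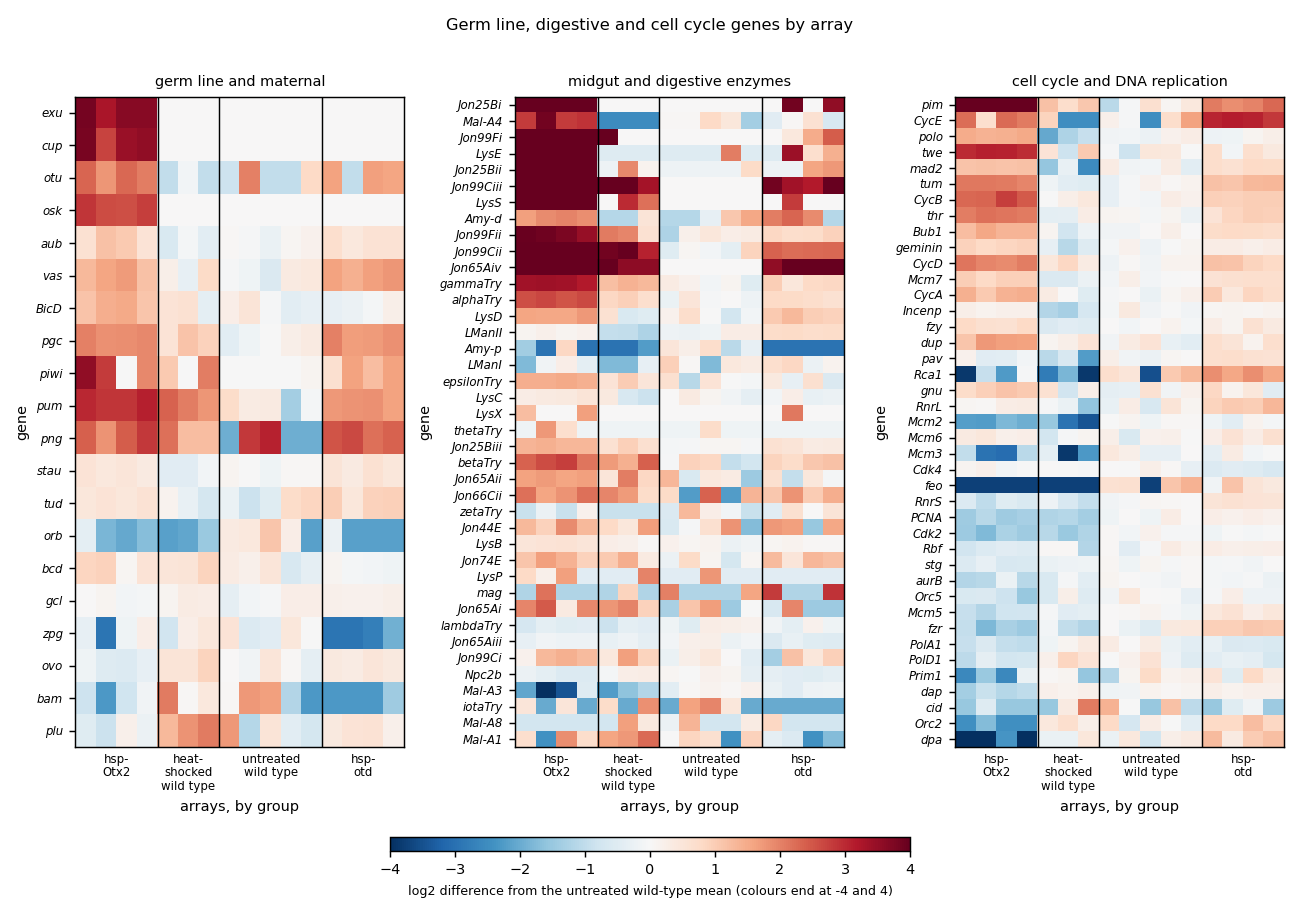
Rows are genes of 3 lists and columns arrays, coloured by the log2 difference from the untreated wild-type mean. The rows exu, cup and osk are red in hsp-Otx2 alone, the uppermost digestive rows are deepest red there, with Jon99Ciii and Jon65Aiv red in the other heat-shocked groups too, and dpa and Orc2 are blue in hsp-Otx2.

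The proteasome list split by subunit class against heat-shocked wild type, as seen after the values were known. The core particle, which cuts proteins, had 10 of 18 tested genes higher and 2 lower (median 0.38). Only 5 of the 10 were also higher than in untreated wild type, against which the core had 5 higher and 4 lower. The regulatory particle, which recognizes and unfolds them, had 13 of 23 lower and 1 higher (median -0.54), and 12 of the 13 were also lower than in untreated wild type. The whole list of 41 gave 11 higher and 15 lower, and 12 and 10 after median scaling. Prosbeta3 read 4246, 3539, 3689 and 4049 in hsp-Otx2 and 892, 449.5 and 310.3 in heat-shocked wild type (2.96, SE 0.25, limma adjusted p = 1.94e-07), and Prosbeta7 gave 1.03, Prosalpha6 0.67 and Prosalpha5 1.23. All 4 were above every array of the other groups. Rpn2, a base subunit of the regulatory particle named after its values were seen, was lower by -2.78.

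Of the mitochondrial respiration list 30 of 74 tested genes were lower and 6 higher (median -0.19). This count depended on the scaling: 7 lower and 10 higher after median scaling, and 0 lower and 5 higher without normalization. Within it, after quantile normalization, 20 of 37 genes of complex I were lower and 3 higher, while of 13 genes of the ATP synthase 0 were lower and 1 higher. These subgroups were split off after the values were seen. The complex I genes ND-PDSW, ND-ACP and ND-B12 gave -0.63, -0.86 and -0.69, and the electron carrier gene Cyt-c-p gave 0.80. Genes of cytosolic ribosomal proteins were rarely called, with 1 of 79 higher and 0 lower (median -0.09). The sarcomere and muscle list had 8 of 33 lower and 2 higher, but 4 lower and 7 higher after median scaling and 7 higher without replicate 1 of heat-shocked wild type. Mf, a muscle protein gene, was higher by 0.86 and Mef2, the muscle transcription factor, lower by -0.94. Against untreated wild type Mf passed in the opposite direction (-0.21, limma adjusted p = 0.0154), while Mef2 was lower there too (-0.46, limma adjusted p = 0.00837).

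Cuticle genes were on both sides. Of 103 tested genes 18 were higher and 21 lower (median -0.21), shares near those of all genes, and without replicate 3 of heat-shocked wild type 13 were lower. Of the 18 higher ones, 14 were lower than in untreated wild type and 0 higher. TwdlW, a Tweedle cuticle protein, read 228.6, 336.4, 390.6 and 285.4 in hsp-Otx2, was at the floor in all heat-shocked wild-type arrays and read 3397 to 3963 in untreated wild type. Its level in hsp-Otx2 was close to that in hsp-otd, at 217.5 to 252.7, and the difference between the lines did not pass (0.38, limma adjusted p = 0.0927). TwdlF gave 1.26 over heat-shocked wild type and -1.01 against untreated wild type.

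Of 10 tested apoptosis genes, 3 were higher and 1 lower. The initiator caspase gene Dronc read 1023, 1484, 1418 and 1121 in hsp-Otx2 and 338.2, 377.3 and 341.5 in heat-shocked wild type (1.82, SE 0.23, limma adjusted p = 9.75e-06), and it was higher also than in untreated wild type and hsp-otd (2.47 and 1.32). The effector caspase genes Drice and Dcp-1 gave 2.75 and 0.96. Drice passed also over untreated wild type (2.37, limma adjusted p = 0.0105), while Dcp-1 did not (0.36, limma adjusted p = 0.0817). Neither of them passed over hsp-otd (limma adjusted p = 0.254 and 0.622). The cell death activator grim gave -0.43 (limma adjusted p = 0.0432) and no longer passed after median scaling (-0.31, limma adjusted p = 0.151) or without either of replicates 1 and 2 of heat-shocked wild type or any of replicates 1 to 3 of hsp-Otx2. Of 12 antimicrobial peptide genes 3 were lower and 0 higher, among them Drsl5, Drs (-0.80) and DptB (-0.51). Drs no longer passed when replicate 1 of heat-shocked wild type was left out (-0.70, limma adjusted p = 0.0523), nor did DptB without replicate 1 or 3 of that group or replicate 1, 3 or 4 of hsp-Otx2. After median scaling 1 of the 12 was lower, without Drs (-0.56, limma adjusted p = 0.0842) and DptB (-0.40, limma adjusted p = 0.0869). The remaining lists (neuronal and synaptic, trachea, fat body and yolk, ecdysone, histones, glycolysis) had at most 5 genes called in either direction. Of 6 tested histone genes 3 were higher and 0 lower, where 18.1% of all genes were higher. Against 19.9% of all genes, 3 of 10 tracheal, 4 of 14 fat body and yolk and 5 of 23 neuronal genes were lower. The ecdysone list had 4 of 20 lower and glycolysis 3 of 12. Higher genes in these lists numbered 0, 0, 1, 1 and 2, in that order.

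**Figure D5:**
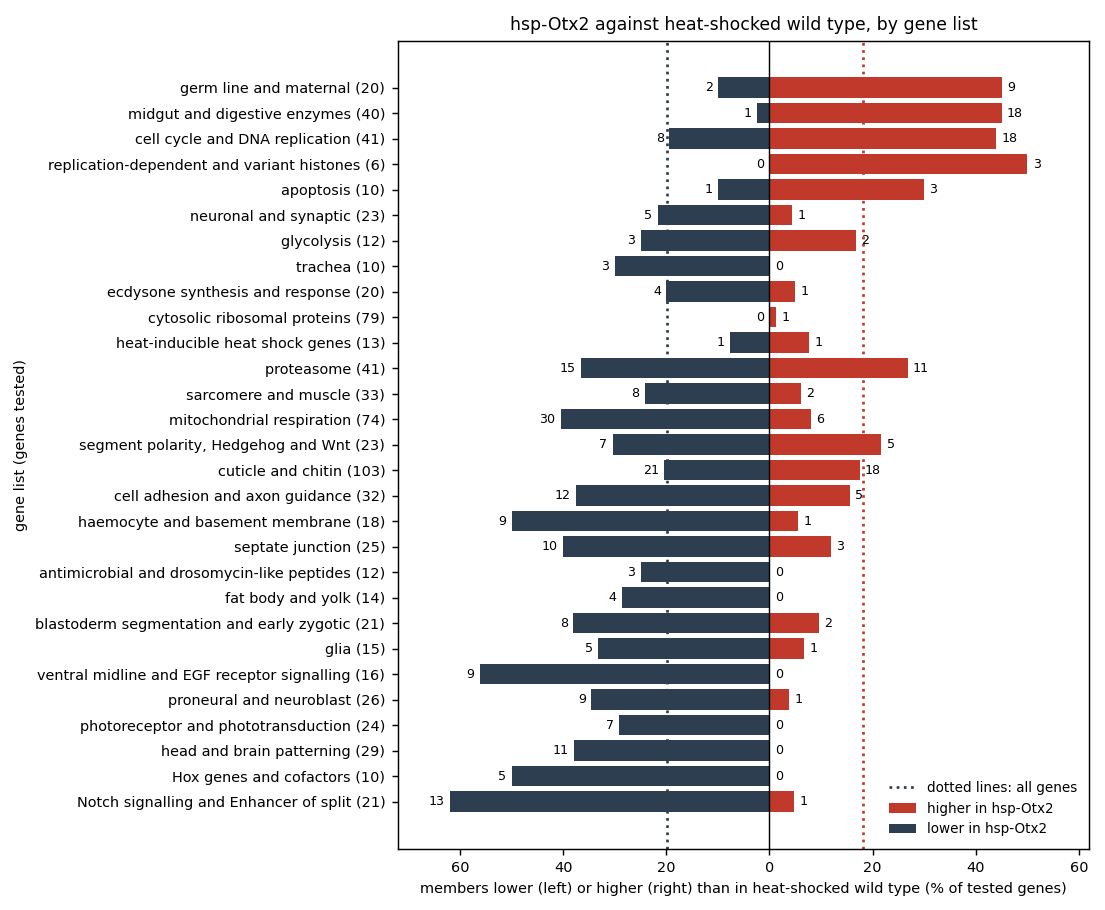
Bars show the share of tested genes of each list that were higher (right) or lower (left) in hsp-Otx2 than in heat-shocked wild type, with counts beside them and dotted lines at 18.1% and 19.9% for all genes. Lists are ordered by their median log2 difference, with Notch signalling (13 lower) at the bottom and germ line and maternal (9 higher) at the top; the lower counts of mitochondrial respiration, septate junction and adhesion depended on the scaling.

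The 2 transgenic lines differed from each other as well. Of 12301 probe sets 3630 (29.5%) passed in hsp-Otx2 over hsp-otd, 1695 higher (13.8%) and 1935 lower (15.7%), with neither group a wild type. Without normalization 29% of these calls were higher, against 46.7% here. Of the probe sets that were higher than in heat-shocked wild type 1129 were also higher than in hsp-otd, and of the lower ones 1035 were also lower. In the same direction over heat-shocked wild type, untreated wild type and hsp-otd alike, 1005 probe sets were higher (8.17%) and 849 were lower (6.9%). By list, 16 of 21 Notch genes, 19 of 41 proteasome genes and 9 of 29 head patterning genes were lower in hsp-Otx2 than in hsp-otd, and 17 of 40 digestive genes were higher. Correlations between arrays of both transgenic lines, at 0.869 to 0.889, were higher than those between hsp-Otx2 and any wild-type array, which reached 0.856.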

How the data were processed

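Members were the arrays with the titles given, all probe sets except 32 controls. The authors deposited for every array a linear intensity per probe set, and 18.3% to 24.6% of an array's values were negative. Their summary of probes and any scaling are not given in the sources used here. Probe-set names led to 1 gene symbol for 13012 of 14038 (controls aside) through a RefSeq table, to several for 550 and to none for 476; case-ambiguous names stayed unnamed. Values were quantile normalized over 16 arrays, raised to a floor of 20 and taken to log2. Probe sets above it in at least 3 arrays were tested (12301, 1737 dim ones left out). The linear model had a mean for each of the 4 groups (limma 3.58.1, R 4.3.3, eBayes with trend, 12 residual degrees of freedom, Benjamini-Hochberg). A fold against a group at the floor in every array is "at least" the geometric mean over 20, and its SE and p can be too small. The array number limits the precision.

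Lists of genes, written by name, and the comparisons were chosen with earlier results of these data known. Named genes are oc, the 10 highest and 10 lowest fold changes that passed over both wild types, the 5 and 5 that passed over heat-shocked wild type and not in the same direction over untreated wild type, each above the floor in all arrays of a compared group, with a symbol other than a CG or CR number, and up to 4 members per list by adjusted p. For lists each gene entered with its brightest probe set. No pair of arrays was identical. Same-numbered arrays of hsp-Otx2 and heat-shocked wild type did not deviate together. Alternatives were other normalizations, floors, filters, weights, a replicate block and leaving out each array.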

Additional observations from a re-analysis of the deposited data

Results flagged for a closer look

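Single arrays stood apart from the rest of their group (by Dixon's criterion for groups of 4 or 5) in 21 of 273 gene-and-group sets of named genes whose arrays were all above the floor; chance flags about 1 in 20. In hsp-Otx2, replicate 2 was apart for Mal-A4 (1649, the others 786.3 to 849.7), stv (2537), Mcm7 (3196), NimB4 (891.2) and Prosalpha5 (899.4), and replicate 4 for tum (3537), gammaTry (3648), Mf (5787) and TpnC47D (2450). In untreated wild type the values apart were Drsl5 at 5925 and Abd-B at 408.6 and Brd at 3701 in replicate 1, Drs at 564.9 and TpnC47D at 6270 in replicate 2, Ccp84Ac at 1416, Hsp67Bc at 1379 and rho at 2344 in replicate 3, and hth at 167.6 in replicate 4. In hsp-otd they were Sgsh at 586.2 and ND-PDSW at 2530 in replicate 3 and fu at 144.3 in replicate 2. All are normalized intensities. The calls of Mal-A4, tum, Mcm7 and gammaTry over heat-shocked wild type were kept without the array that stood apart.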

How the results depend on the processing

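Calls between hsp-Otx2 and heat-shocked wild type numbered 4577 and ran from 3895 to 4527 when each array of both groups was left out in turn. For hsp-Otx2 over untreated wild type (4917) the range was 4418 to 4969, for the calls shared by both (2942) 2593 to 3049, over hsp-otd (3630) 3178 to 3270 and for heat-shocked over untreated wild type (2770) 2303 to 2940. Without normalization the counts were 2378, 2683, 1314, 1837 and 1289, in that order, with 86.4% of the first and 87.1% of the shared calls higher; after median scaling 63.3% of the shared calls were higher, against 50.8%. Heat-shocked over untreated wild type gave 1535 calls when fitted alone and 1600 when each group had a variance factor of its own. With the replicate block 4264 probe sets passed over heat-shocked wild type and 2881 over both wild types. The numbers pair nothing: deviations of same-numbered hsp-Otx2 and heat-shocked wild-type arrays correlated at 0.057, 0.061 and 0.006. Signs turned for Nrt (0.18), Lac (0.037), LanB1 (0.064), crim (0.044) and grim (0.076) without normalization and for oc (-0.27) without replicate 2 of heat-shocked wild type; the cause was not tested. Of the other values of named genes under the alternatives, 1797 kept side and direction, 66 fell below and 1 rose above the threshold. For the 11 genes named after their values were seen and tested under the same alternatives, added after seeing the data, 162 values kept side and direction and 25, of ems, sim, dap and Cdk8, fell below the threshold. A floor of 50, the generalized log, no filter, a filter on the compared groups and array weights left the number of calls within 1.5 times for each comparison. Depth is not defined for arrays, and genes near the floor carry the widest errors.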
